A study of Mus musculus with 8 samples.

Results

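The 6 genes described here are G6pc, Pck1, Fbp1, Pcx, Slc37a4 and Ppargc1a, which encode enzymes of hepatic glucose production, a transporter that serves the last of them and a transcriptional coactivator that induces them. They were chosen by name, and each was read on the brightest probe set that the array annotation assigns to that gene alone. All 6 had at least 1 such probe set (11 probe sets among 12488 in the table), and 5 of the 6, all but Ppargc1a, had a mean intensity above the 165.2 set as the minimum for testing. RNA was taken from the livers of 8 female Ames dwarf mice (df/df), each hybridised to its own Affymetrix U74Av2 array. The mice were given 30% less pelleted food than female df/df mice with free access to it ate, had free access to water, and reached 24 to 26 months before they were killed. With 1 group in the series, each comparison is between individual mice; neither dwarf mice with free access to food nor mice without the mutation were analysed here, and the data hold no measure of the diet or of the dwarf mutation. The labels name no batch, litter, time of day or feeding state at death.

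Gluconeogenesis makes glucose from lactate, glycerol and amino acids, and in mammals the liver is its main site during fasting. Pyruvate carboxylase turns pyruvate into oxaloacetate in the mitochondrion, phosphoenolpyruvate carboxykinase turns oxaloacetate into phosphoenolpyruvate, fructose-1,6-bisphosphatase removes a phosphate further up the pathway, and glucose-6-phosphatase releases free glucose in the endoplasmic reticulum. Glucagon and glucocorticoids induce transcription of G6pc and Pck1 in liver and insulin represses it, partly through the forkhead factor FOXO1. In Ames dwarf mice the pituitary is without its sources of growth hormone, thyrotropin and prolactin.

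The arrays and the tissue were read first. Control transcripts that are added to each sample before hybridisation were read on 9 sense probe sets. Their mean log2 intensity was between 10.15 and 10.32 in mice 5 to 8 and between 10.75 and 10.89 in mice 1 to 4. The arrays thus fell into 2 sets of 4, defined from those controls alone. The deposited values were already scaled by array, so the control signal is relative to that of each liver's RNA. Whether the sets differ in the arrays or in the mice was not tested. Differences between them are given below as values with no test. Mouse 5 stood apart in another respect. Probe sets for the 5′ end of the Gapdh transcript read 0.375 of those for its 3′ end in mouse 5, against 0.937 to 1.26 in the other mice, whereas the same ratio for Actb was 0.627 in mouse 5, inside the range of 0.500 to 0.690 in the others. Of the 10 hepatocyte markers 8 had a probe set, all 8 were tested, and albumin (Alb) averaged 29253 ± 4809 (SD, n = 8). None of the 6 kidney markers, from the other organ that makes glucose, reached the minimum for testing, with a summed intensity of 187 to 290 over the 6. In a whole liver a change in the number of cells of a type and a change in RNA per cell cannot be told apart.

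G6pc encodes the catalytic subunit of glucose-6-phosphatase, and on the brightest probe set of each gene it varied far more between the livers than the other enzymes. Its intensity was 4958, 4628, 4836 and 3830 in mice 5, 6, 7 and 8, and 2648, 541, 1947 and 1238 in mice 1, 2, 3 and 4. The lowest of the first 4 livers was above the highest of the other 4, and mouse 2 was the lowest of all, 9.16-fold below mouse 5. Within the sets the fold range was 1.29 in mice 5 to 8 and 4.89 in mice 1 to 4, so the set with the low values also held most of the spread that remained. Mean intensity was 4563 ± 508 in mice 5 to 8 and 1594 ± 907 in mice 1 to 4 (SD, n = 4 each), a difference of 1.74 on the log2 scale. Because the sets also differ in the signal of the added controls, the part of the arrays in that difference was not tested. Among all 6276 tested probe sets, 1.34% were without overlap and higher in mice 5 to 8, as G6pc was.

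The spread of G6pc between mice was an SD of 1.14 on the log2 scale (n = 8), and 1.88% of the tested probe sets had a larger one. Spread was set against that expected at the same brightness in an F test on limma's variance estimates, in which the unadjusted p for G6pc was 0.00321 and the adjusted p 0.353. Of the 5 tested members, each on its brightest probe set, 0 passed at an adjusted p under 0.05 and 1, G6pc, had an unadjusted p under 0.05. On probe sets other than its brightest, described below, Pcx had an SD of 1.66 (MA), 1.07 (5′) and 0.81 (MB). Over all tested probe sets 0% passed after adjustment and 6.42% (403) had an unadjusted p under 0.05, and the count of 0 members has little power behind it: on data simulated with the estimated scatter of variances, 0% of planted probe sets were recovered even at 8 times the expected SD. With the means of the sets subtracted, G6pc kept an SD of 0.71 and an unadjusted p of 0.0178.

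Slc37a4, the transporter that carries glucose 6-phosphate into the endoplasmic reticulum to meet that enzyme, overlapped between the sets. Its intensity was 6042, 3058, 3815 and 3337 in mice 5, 6, 7 and 8, and 4450, 3311, 4166 and 3576 in mice 1, 2, 3 and 4. Mouse 5 was well above the rest. The mean was 3970 ± 957 (SD, n = 8) with a fold range of 1.98 and an SD of 0.31 on the log2 scale. The r between Slc37a4 and G6pc was 0.309 (exact permutation p = 0.452), 0.04 without mouse 5, and 0.472 with the means of the sets subtracted (exact permutation within the sets, p = 0.0278, adjusted p = 0.0926).

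Pck1, the cytosolic phosphoenolpyruvate carboxykinase, was close to uniform. Intensities of 8365, 6419, 7229 and 6549 were read in mice 5, 6, 7 and 8, and of 7838, 5718, 6788 and 7849 in mice 1, 2, 3 and 4. The sets overlapped, mouse 5 was the highest and mouse 2 the lowest, and the range between them was 1.46-fold. Its mean was 7094 ± 886 (SD, n = 8), and its SD of 0.18 on the log2 scale was exceeded by 72.8% of the tested probe sets. G6pc and Pck1, which share much of their hormonal control, both had their lowest value in mouse 2 and their highest in mouse 5, but mouse 4 was second to G6pc's lowest (1238) and second to Pck1's highest (7849).

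Fbp1, fructose-1,6-bisphosphatase of liver and kidney, was split between the sets in the direction opposite to G6pc. It read 14455, 13729, 17085 and 15922 in mice 5, 6, 7 and 8, and 18582, 20646, 20222 and 19851 in mice 1, 2, 3 and 4. All 4 values of the first set lay below all 4 of the second. The mean was 15298 ± 1501 in mice 5 to 8 and 19825 ± 890 in mice 1 to 4 (SD, n = 4 each), a log2 difference of -0.38. Non-overlapping sets with lower values in mice 5 to 8 were found for 1.77% of the tested probe sets, and in either direction for 3.11%, against 2 of the 5 tested members. The SD of Fbp1 over all 8 mice was 0.23 on the log2 scale, which fell to 0.11 with the means of the sets subtracted.

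Ppargc1a encodes PGC-1 alpha, the coactivator that fasting induces in liver and that drives transcription of G6pc and Pck1. Its only probe set was too dim to test. It read 6.0, 8.6, 60.2 and 64.3 in mice 5, 6, 7 and 8, and 40.5, 57.7, 52.9 and 62.0 in mice 1, 2, 3 and 4. The values of mice 5 and 6 lay under 37.2, the lower quartile of the table, which served as a floor below which values have no usable order, and the other 6 lay between 40.5 and 64.3. No fold change is given for it.

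**Figure D1:**
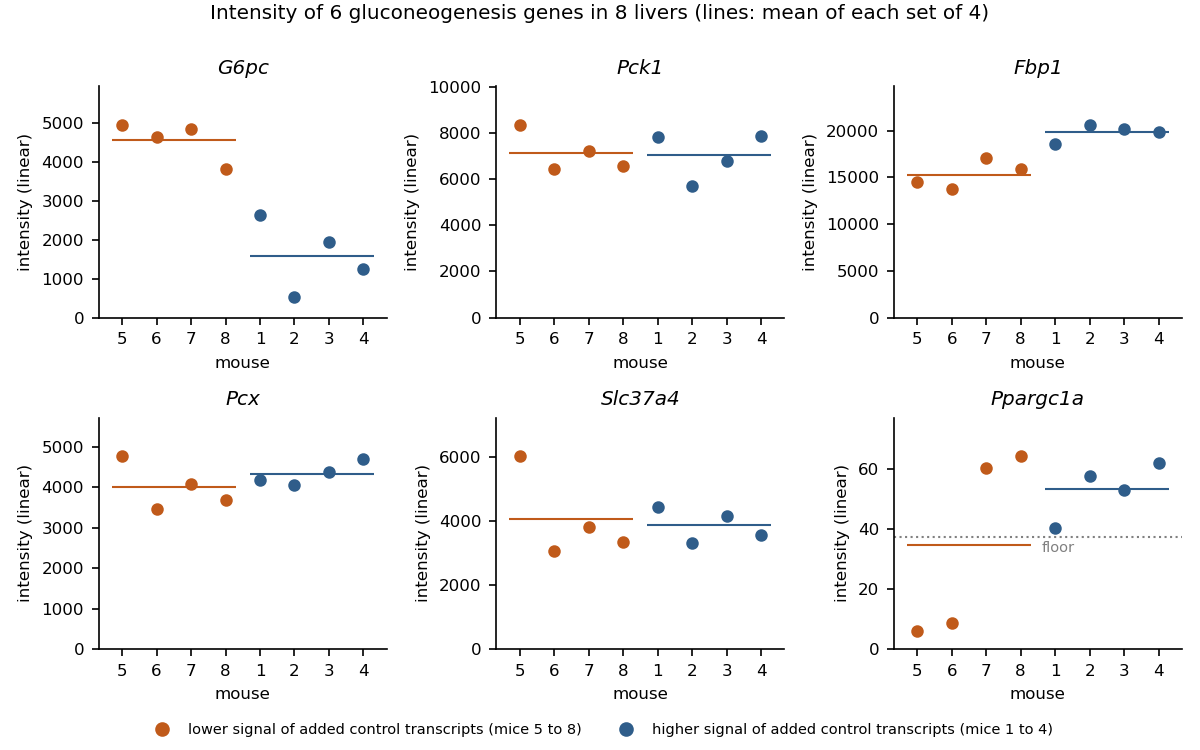
Intensity (linear scale, vertical axes starting at 0) of the brightest probe set of each of the 6 genes in each mouse, with mice 5 to 8 (orange) left of mice 1 to 4 (blue) and a line at the mean of each set. The sets are separate for G6pc (mean 4563 and 1594) and for Fbp1 (15298 and 19825) and overlap for the others, and mice 5 and 6 fall below the dotted floor of 37.2 for Ppargc1a.

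Pcx, pyruvate carboxylase, is measured on this array by 6 probe sets, because its transcript also serves as one of the manufacturer's controls for RNA integrity. The names of the control sets mark the 3′ end, the middle (MA and MB) and the 5′ end of the transcript, and cDNA synthesis starts at the 3′ end, so broken RNA or short cDNA lowers the sets toward the 5′ end. The brightest of the 6 was the 3′ control set, with 4769, 3472, 4080 and 3679 in mice 5, 6, 7 and 8 and 4167, 4052, 4378 and 4701 in mice 1, 2, 3 and 4. On that set Pcx was even between livers, with a mean of 4162 ± 453 (SD, n = 8), a range of 1.37-fold and overlapping sets. The probe set with the suffix s_at, which may share probes with related transcripts, averaged 1475 ± 161 and ranged 1.36-fold.

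The other control sets of the same gene gave a different picture. The 5′ control set read 117, 390, 866 and 1396 in mice 5, 6, 7 and 8 and 564, 860, 477 and 690 in mice 1, 2, 3 and 4, a range of 11.9-fold. On the MA set mouse 8 read 1926 and mouse 5 only 47.1, close to background, and on the MB set mouse 8 (2514) was 5.57-fold above mouse 5 (451). Mouse 5 was thus the highest of the 8 on the 3′ set and the lowest on the 5′, MA and MB sets. The r of these 3 sets with the 3′ set over the 8 mice was -0.460 for the 5′ set, -0.560 for MA and -0.579 for MB, and without mouse 5 it was -0.05, -0.250 and -0.311. The s_at set, by contrast, correlated at 0.419 with the 3′ set and at 0.707 without mouse 5. The other set that is not a control, with the suffix f_at, was dimmer and ranged 2.43-fold. It was also lowest in mouse 5 (191) and highest in mouse 1 (463). Its r with the 3′ set was 0.125, and 0.615 without mouse 5. Over the Pcx transcript the 5′ to 3′ ratio was 0.0246 in mouse 5 and 0.109 to 0.379 in the other mice. The limma F test gave unadjusted p-values of 0.00086 for MA (adjusted p = 0.305) and 0.00484 for the 5′ set (adjusted p = 0.390), against 0.741 for the 3′ set.

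**Figure D2:**
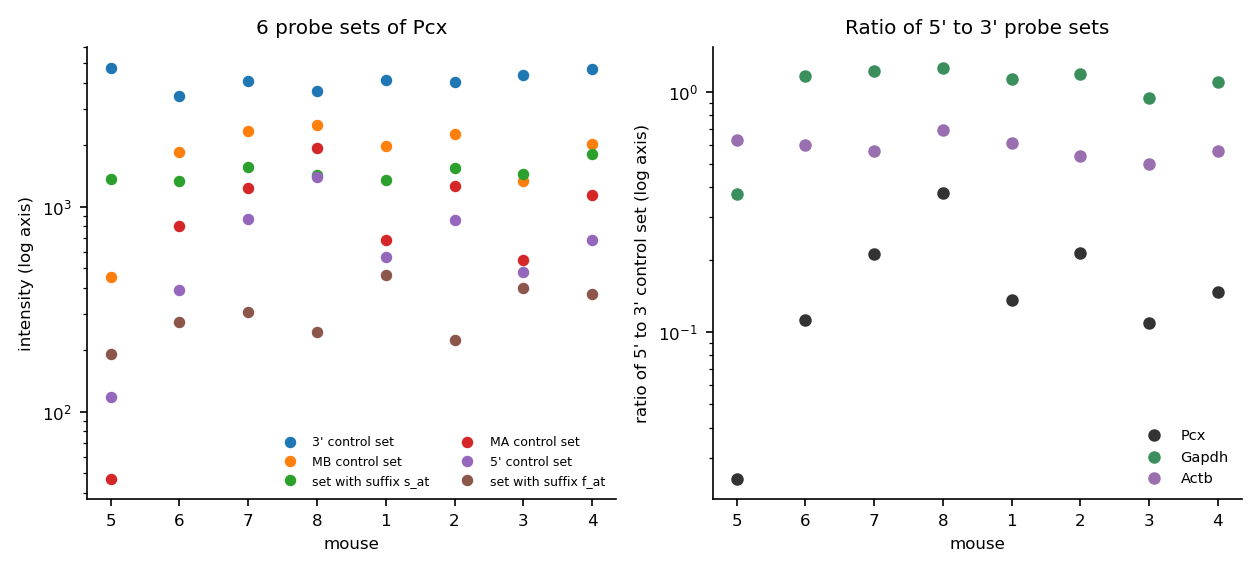
Left, intensity of the 6 Pcx probe sets in each mouse on a log axis. Right, ratio of the 5′ to the 3′ control probe set of Pcx, Gapdh and Actb on a log axis. Mouse 5, at the far left, has the highest 3′ value of Pcx (4769), the lowest MA value (47.1) and the lowest ratio for Pcx (0.0246) and Gapdh (0.375), but not for Actb (0.627).

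G6pc and Fbp1 split between the array sets in opposite directions, and Pck1 and Slc37a4 had a positive r. Over all 8 mice, without rescaling, neither pair's correlation passed adjustment, as described below. The upstream sequences of these 4 genes are shown to let their known control elements be compared. They are the 250 bases before the annotated start in RefSeq's GRCm38.p6 annotation (all 6 genes matched by symbol; for Slc37a4 the first of its 3 listed starts), 5′ to 3′ along the gene. Capitals mark matches on either strand to letters of 8 known elements. Hormone elements were searched as TGACG (the core that cAMP signalling uses through CREB), as GTAAACA (bound by forkhead factors), as CAAAACA (a sequence known from the insulin response unit of G6pc), as AGAACA (the core bound by the glucocorticoid receptor) and as AGGTCA (the core bound by other nuclear receptors). General promoter elements were searched as TATAAA (the binding sequence of TBP), as GGGCGG (bound by the factor Sp1) and as CCAAT (bound by the factor NF-Y). None of these motifs contains another, and no matches in these 4 windows overlap.
G6pc (chr11:101367466-101367715, plus strand): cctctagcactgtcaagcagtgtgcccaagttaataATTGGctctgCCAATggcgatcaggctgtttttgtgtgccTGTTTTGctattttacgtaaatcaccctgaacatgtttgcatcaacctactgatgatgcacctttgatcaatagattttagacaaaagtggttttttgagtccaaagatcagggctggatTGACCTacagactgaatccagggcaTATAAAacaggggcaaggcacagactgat
Fbp1 (chr13:62888283-62888532, minus strand): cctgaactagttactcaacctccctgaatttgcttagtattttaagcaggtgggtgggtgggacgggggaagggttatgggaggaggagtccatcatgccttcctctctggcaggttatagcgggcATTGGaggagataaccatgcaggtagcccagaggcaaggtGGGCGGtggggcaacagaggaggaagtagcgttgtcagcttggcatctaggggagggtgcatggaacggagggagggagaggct
Pck1 (chr2:173152823-173153072, plus strand): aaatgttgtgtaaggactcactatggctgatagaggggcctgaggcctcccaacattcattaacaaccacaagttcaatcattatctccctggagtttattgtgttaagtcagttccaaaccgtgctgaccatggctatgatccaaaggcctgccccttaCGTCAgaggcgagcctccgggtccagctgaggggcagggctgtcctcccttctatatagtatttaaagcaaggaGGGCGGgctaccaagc
Slc37a4 (chr9:44396696-44396945, plus strand): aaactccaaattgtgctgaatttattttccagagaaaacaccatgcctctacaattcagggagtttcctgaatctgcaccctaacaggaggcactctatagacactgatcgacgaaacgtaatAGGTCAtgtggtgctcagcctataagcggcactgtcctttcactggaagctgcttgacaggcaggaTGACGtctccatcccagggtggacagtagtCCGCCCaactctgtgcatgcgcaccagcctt

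The G6pc window held CAAAACA on the reverse strand at -174 to -168, a match found in 5.56% of the 32851 RefSeq promoter windows of this length. It also held AGGTCA on the reverse strand (14.0% of windows), TATAAA at -29 to -24 (12.4%) and CCAAT at 2 places (33.8%). TGACG lay on the reverse strand at -90 to -86 in Pck1, near where the cAMP response element of the rat gene is known to lie, and on the forward strand at -61 to -57 in Slc37a4, against 17.8% of all windows. Fbp1 held GGGCGG (32.7%) and CCAAT once each. GTAAACA (3.17%) and AGAACA (16.1%) had no match in the 4 windows shown, and bases farther upstream were not searched. These are matches of letters, and binding was not measured.

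**Figure D3:**
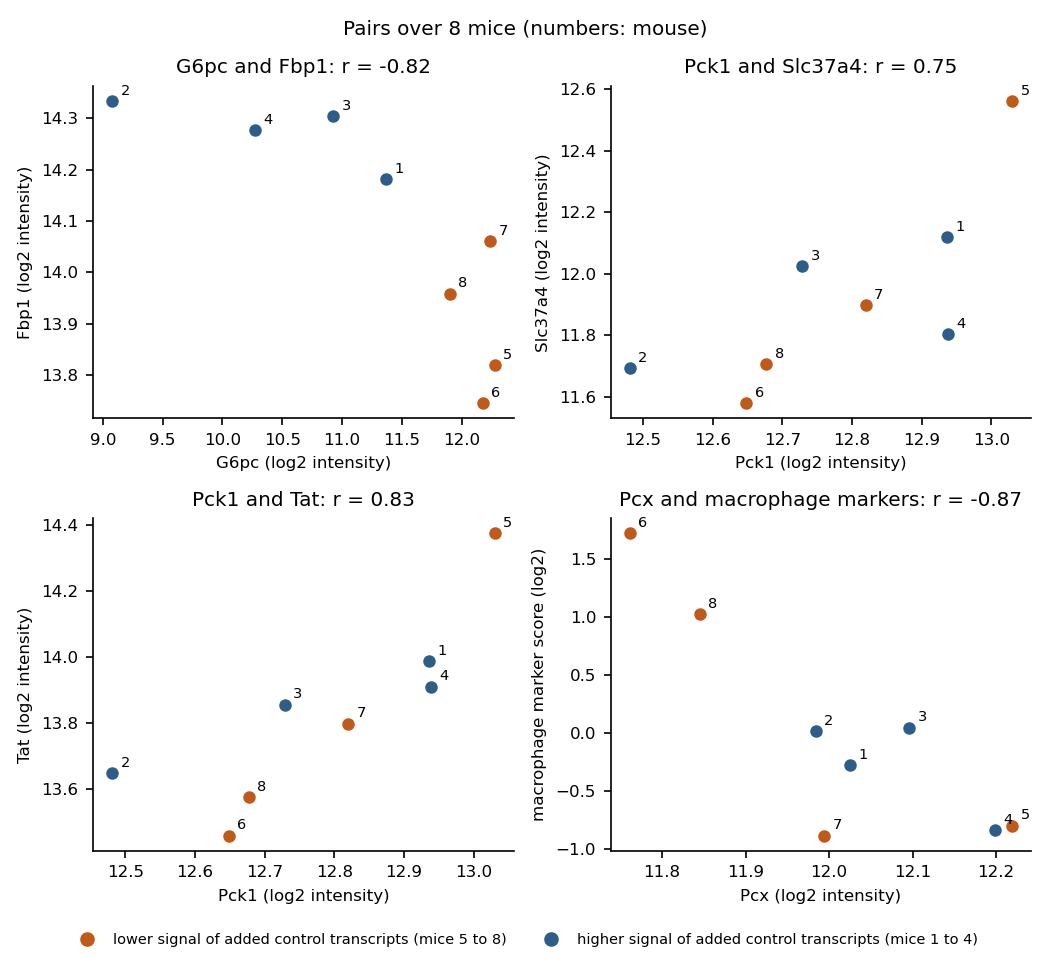
Log2 intensity of 3 pairs of genes, and of Pcx against the macrophage marker score (log2 intensity relative to each marker's own mean, averaged over the 12 tested markers), with each mouse as a numbered point. G6pc and Fbp1 separate by array set (r = -0.820), the 2 pairs with Pck1 run along a line with mouse 5 at its upper end (r = 0.752 and 0.828), and Pcx is lowest in mice 6 and 8, where the macrophage score is highest (r = -0.867).

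The 5 tested members gave 10 pairs over the 8 mice. In exact two-sided permutation tests adjusted over the 10 pairs, 0 pairs had an adjusted p under 0.05 by Pearson's r or by Spearman's rho, and 3 had an unadjusted p under 0.05 by r. G6pc and Fbp1 had an r of -0.820 (exact permutation p = 0.0109, adjusted p = 0.109) and a rho of -0.857 (exact permutation p = 0.0107, adjusted p = 0.0536). Once mice 2 and 4, farthest from the median of G6pc, were set aside, r was -0.858 (exact permutation p = 0.0278). With the means of the array sets subtracted it was -0.355 (exact permutation within the sets, p = 0.188), and a set of 4 mice is too small for a correlation of its own. Leaving out mouse 4 alone brought 3 pairs under the threshold, this one (r = -0.795, adjusted p = 0.0377), Pck1 with Slc37a4 (0.867, 0.0377) and Pcx with Slc37a4 (0.903, 0.0317), each by an exact permutation test.

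Pck1, Slc37a4 and the 3′ set of Pcx formed a trio of positive correlations. For Pck1 and Slc37a4 r was 0.752 (exact permutation p = 0.0258, adjusted p = 0.129) and rho 0.810 (exact p = 0.0218, adjusted p = 0.0544), and r was 0.611 without mice 2 and 5 (exact p = 0.203) and 0.751 with the means of the sets subtracted. Pck1 and Pcx had an r of 0.674 (exact permutation p = 0.0676, adjusted p = 0.169) and a rho of 0.857 (exact p = 0.0107, adjusted p = 0.0536), with 0.768 without mice 2 and 5 (exact p = 0.0819) and 0.769 with the means of the sets subtracted. Pcx and Slc37a4 had an r of 0.718 (exact permutation p = 0.0419, adjusted p = 0.140) and a rho of 0.810 (exact p = 0.0218, adjusted p = 0.0544), but r was 0.347 without mice 5 and 6 (exact p = 0.519). Mouse 5 was the highest of the 8 in all 3 genes and in G6pc, as it was in 20.3% of the tested probe sets, and without it the 3 values of r were 0.632, 0.544 and 0.599. Both correlations with Pcx belong to the 3′ set: with the s_at set r was 0.05 with Pck1 and -0.285 with Slc37a4. Averaged over all 6 probe sets of Pcx, r was -0.481 with Pck1 and -0.796 with Slc37a4. When every array was scaled to the same median the 3 pairs passed, at 0.860 for Pck1 and Slc37a4 (adjusted p = 0.0279), 0.841 for Pck1 and Pcx (0.0337) and 0.837 for Pcx and Slc37a4 (0.0279), by exact permutation tests. Quantile normalization moved them the other way, to 0.525, 0.458 and 0.555 (exact permutation p = 0.188, 0.255 and 0.153), and left 0 of the 10 member pairs with an unadjusted p under 0.05. The other 6 pairs had r between -0.232 and 0.436 over all 8 mice, the lowest unadjusted exact permutation p being 0.285. Among them Fbp1 with Pcx went from 0.398 to 0.855 without mouse 5 (exact permutation p = 0.0129, adjusted p = 0.129). Its r was 0.0843 with the means of the sets subtracted and 0.00956 without mouse 6. Fbp1 with Slc37a4 turned from -0.126 to 0.524 without mouse 5 (exact permutation p = 0.230). G6pc with Pck1 was the pair with the r of 0.436, which turned to -0.18 without mouse 2 and was 0.660 with the means of the sets subtracted.

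Of 14 pairs of a member with a partner in metabolism or hormonal response, 7 were tested, and the rest, those with Ppargc1a among them, were not analysed here. The share of all tested genes with an r as strong is not given for these pairs. None of the 7 (0) had an adjusted p under 0.05 in exact permutation tests, and 1 had an unadjusted p under 0.05. That pair was Pck1 with Tat, tyrosine aminotransferase, an enzyme of amino acid breakdown that glucocorticoids and glucagon also induce. Tat read 21226, 11259, 14239 and 12207 in mice 5, 6, 7 and 8, and 16226, 12829, 14818 and 15389 in mice 1, 2, 3 and 4. Mouse 5 was the highest in both genes, mice 1 and 4 came next, and mice 2, 6 and 8 were the lowest in both. The r was 0.828 (exact permutation p = 0.0100, adjusted p = 0.0703) and rho 0.881 (exact p = 0.00724, adjusted p = 0.0507), and r was 0.878 without mice 2 and 5 (exact p = 0.0333) and 0.765 without mouse 5 (exact p = 0.0482). With the means of the sets subtracted it was 0.839 (adjusted p = 0.0243 by exact permutation within the sets), leaving out mouse 2 gave 0.913 (adjusted p = 0.00833) and scaling arrays to a common median 0.916 (adjusted p = 0.00851), both by exact permutation. Quantile normalization gave 0.727, the lowest r of any setting run for that pair (exact permutation p = 0.0433, adjusted p = 0.238). G6pc with Igfbp1, a secreted binding protein that insulin represses in liver, had an r of 0.659 (exact permutation p = 0.0814) and a rho of 0.381, but r was 0.0987 without mouse 2 and -0.319 without mice 2 and 4. Pck1 with Igfbp1 had 0.347 (exact permutation p = 0.410), which turned to -0.407 without mouse 2. The opposing enzymes Pklr (with Pck1, 0.230) and Pfkl (with Fbp1, 0.0815) also had positive values of r, as had Pcx with Pdk4 (0.431) and Pdha1 (0.0612), a kinase and a subunit of pyruvate dehydrogenase, which competes with it for pyruvate. The sign was not stable for Pfkl (-0.11 with the means of the sets subtracted, -0.277 without mouse 5), for Pdha1 (-0.251 without mouse 6) or for Pdk4 (-0.396 with the mean of all Pcx probe sets).

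Scores of the hepatocyte, macrophage and interferon response marker lists were set against each tested member in 15 further pairs. Of these 0 had an adjusted p under 0.05 and 3 an unadjusted p under 0.05 by r in exact permutation tests. The share of all tested genes with an r as strong is not given here, so these relations are not shown to be particular to the members. The macrophage list (13 of 14 markers with a probe set, 12 tested) summed to 6592 to 40916 in mice 5 to 8 and to 6285 to 12647 in mice 1 to 4, with the highest sum in mouse 6. Pcx on its 3′ set ran against its score, with an r of -0.867 (exact permutation p = 0.00600, adjusted p = 0.0813) and a rho of -0.643 (exact p = 0.0962, adjusted p = 0.240), and r was -0.722 without mice 5 and 6 (exact p = 0.104). Against the interferon response score Pcx had an r of -0.811 (exact permutation p = 0.0163, adjusted p = 0.0813) and a rho of -0.643 (exact p = 0.0962, adjusted p = 0.240), with -0.621 without mice 5 and 6 (exact p = 0.169). The macrophage and interferon scores rank the 8 mice in the same order, so these are not 2 separate results. The s_at set gave -0.504 against the macrophage score and -0.539 against the interferon score. Leaving out mouse 7 gave an r of -0.961 with the macrophage score (adjusted p = 0.0238, exact permutation), quantile normalization gave -0.902 (adjusted p = 0.0446, exact permutation), and the mean of all Pcx probe sets turned the sign, to 0.242. Pck1 also ran against the macrophage and interferon scores (r = -0.623 and -0.657, and -0.830 and -0.847 without mouse 2). Slc37a4 did so too (r = -0.608 and -0.555). Over all 8 mice the lowest unadjusted exact permutation p of these was 0.0805. The part of macrophages in the values of these genes was not tested.

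Fbp1 followed the hepatocyte score (r = 0.839, exact permutation p = 0.0112, adjusted p = 0.0813), and rho was 0.881 (exact p = 0.00724, adjusted p = 0.0543). Its r was 0.600 without mice 5 and 6 (exact p = 0.204), 0.619 with the means of the sets subtracted and 0.914 without mouse 8 (adjusted p = 0.0446, exact permutation). G6pc ran against the hepatocyte score, with an r of -0.691 (exact permutation p = 0.0559, adjusted p = 0.210) and a rho of -0.881 (exact p = 0.00724, adjusted p = 0.0543), and r was -0.857 without mice 2 and 4 (exact p = 0.0264) but -0.251 with the means of the sets subtracted. The hepatocyte score itself ranged from -0.26 in mouse 5 to 0.24 in mouse 3, and its markers did not move together. In mouse 5 Hnf4a (266, against 703 to 1308 in the others), Apob (1839) and Fgb (6095) were at their lowest, while Cps1 (27687) was at its highest and Alb (34616) and Apoa1 (30316) were next to theirs. The summed intensity of the list in mouse 5, 129364, was the highest among mice 5 to 8. The other 11 pairs with marker lists had r between -0.657 and 0.173.

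**Figure D4:**
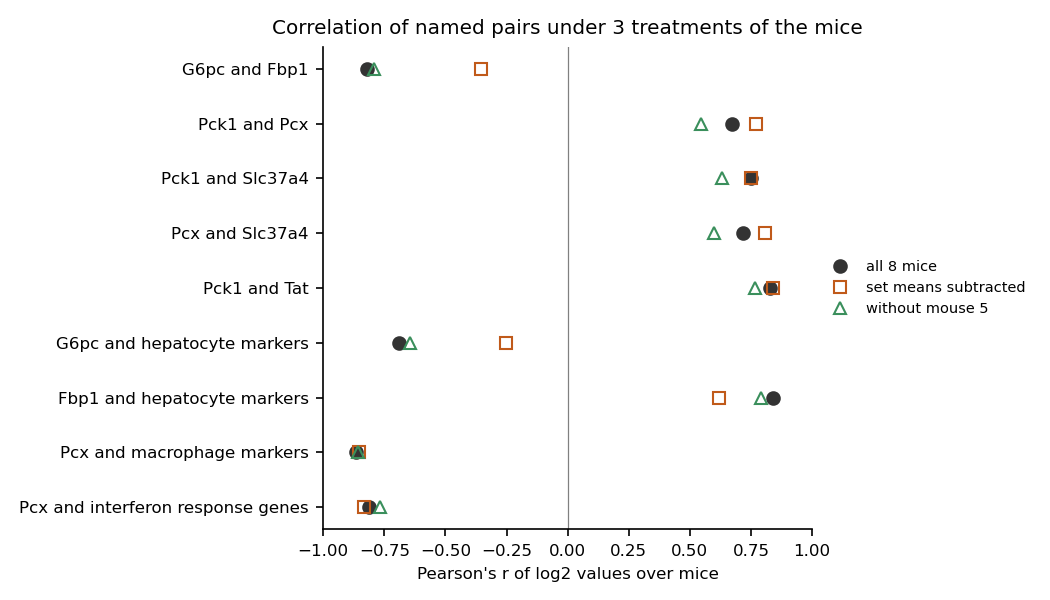
Pearson's r of log2 values for the 9 pairs with an unadjusted p under 0.05 by r or by rho, over all 8 mice (filled circles), with the means of the array sets subtracted (squares) and without mouse 5 (triangles). The 2 pairs with G6pc move toward 0 when the means of the sets are subtracted (-0.355 and -0.251), and the pair of Pck1 and Tat stays between 0.765 and 0.839.

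Across all 4871 tested genes, those whose pattern over the 8 mice was most like that of a member were ranked by r of log2 intensity. They share mice, arrays and labelling with the member and were picked for their r, so no p is given. G6pc was most like Slc25a25, a mitochondrial carrier of ATP-Mg and phosphate (r = 0.920, and 0.964 with the means of the sets subtracted), which read 928 in mouse 2, 1617 in mouse 4 and 2920 to 3204 in the other 6. Nrep (r = 0.903) and the kainate receptor subunit Grik5 (r = 0.899) came next, and Tjp1, the tight junction protein ZO-1, was the most opposed (r = -0.912). All 3 of the most alike genes had their lowest value in mouse 2, where Tjp1 had its highest (660).

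Pck1 was closest to Tmem245 (r = 0.947), Gch1, the enzyme that starts tetrahydrobiopterin synthesis (r = 0.917), and the zinc finger gene Zkscan1 (r = 0.899), and most opposed to Capn6, of the calpain family (r = -0.938). Fbp1 was nearly parallel to Aldh1a1, a retinaldehyde dehydrogenase (r = 0.976, and 0.985 with the means of the sets subtracted), which ranged 1.37-fold with its lowest value in mouse 6 and its highest in mouse 2, as Fbp1 did. The transcription factor Atf5 (r = 0.953) and Mia3, which serves export from the endoplasmic reticulum (r = 0.951), followed, and Zfx was at the other end (r = -0.946). Pcx, read only on its 3′ control set, was closest to Ndufb2, a complex I subunit (r = 0.982), the carboxylesterase Ces1c (r = 0.981) and the peroxisomal thiolase Acaa1b (r = 0.975). On that set it was most opposed to Itm2c (r = -0.964), which read 1204 in mouse 6. Slc37a4 was closest to Vps28, of the ESCRT-I complex (r = 0.969), the complex I subunit Ndufv1 (r = 0.968) and the proteasome component Sem1 (r = 0.967), and opposed to Ahr, the aryl hydrocarbon receptor (r = -0.969).

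No member was among the 100 genes most like another member. Slc37a4 ranked 127 of 4870 in likeness to Pck1, and Pcx, on its 3′ control set, ranked 289. In likeness to G6pc, Pck1 ranked 550 and Slc37a4 990, while Fbp1 was 27 from the bottom of the order.

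The rest of the pathway was read from lists of genes. Of 26 genes for entry of substrates (lactate, glycerol, amino acids and their shuttles), 20 had a probe set, 15 were tested and 0 passed the limma F test, with 0 at an unadjusted p under 0.05. Their median SD of log2 intensity was 0.21, against 0.23 for all tested genes. The largest spread was in Gpd2, the mitochondrial glycerol phosphate dehydrogenase, from 129 in mouse 6 to 505 in mouse 3. Oat, ornithine aminotransferase, read 4771 in mouse 6 and 13506 in mouse 4, and Slc25a1, the citrate carrier, 1275 in mouse 5 and 2375 to 2909 in the others. Tdo2, which opens tryptophan breakdown, was the brightest (22511 ± 3169, SD, n = 8). Both Tdo2 and the glucose transporter Slc2a2 were highest in mouse 5, as 7 of the 15 were, and 9 of the 15 were lowest in mouse 6, as were 3 of the 5 members, against 17.9% of all tested probe sets.

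Genes listed for the steps that gluconeogenesis shares with glycolysis were as even as the members other than G6pc. The 10 listed also include Pgm1 and Pgm2, phosphoglucomutases, which belong to glycogen metabolism and not to the shared steps. Of the 10, 6 were tested, Pgm1 among them, with a median SD of 0.22 and 0 passing. Pgk1 was read at 7635 in mouse 5 and 3985 to 5480 in the others, Aldoa at 4337 in mouse 6 and 2098 to 2986 in the others, and Pgm1 at 10084 in mouse 5 and 5976 to 7860 in the others. Gapdh, the brightest, averaged 17003 ± 2308 on the middle one of its control sets.

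A list of enzymes that oppose gluconeogenesis, held together with regulators of such enzymes, had a median SD of 0.27 among the 10 tested of 14. The 10 include Pdk1 (SD 0.33) and Pdk4 (SD 0.19), kinases that act on pyruvate dehydrogenase and are not opposing enzymes themselves. None passed after adjustment (0 of 10), and 2, Pkm and Pklr, had an unadjusted p under 0.05. Pkm, the pyruvate kinase of most tissues other than liver, read 344, 2495, 385 and 1496 in mice 5, 6, 7 and 8 and 387, 407, 306 and 333 in mice 1, 2, 3 and 4, so it was high in the livers with the highest macrophage scores, 1.72 in mouse 6 and 1.02 in mouse 8. Pklr, the liver form that insulin and carbohydrate induce, was lowest in those livers, at 385 in mouse 6 and 549 in mouse 8, and 741 to 1245 in the others. The regulator Pfkfb3 ranged 2.22-fold, with the highest value in mouse 5 (316), and Hk1, the brightest of the list, ranged 1.45-fold.

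Of 8 glycogen genes 4 were tested, with 0 passing and a median SD of 0.19. Gbe1, the branching enzyme, read 1174 in mouse 5 and 469 to 770 in the others, Gaa, the lysosomal glucosidase, ranged 1.48-fold, and Ugp2, which makes UDP-glucose, 1.47-fold. Among 20 transcriptional regulators 12 were tested, with a median SD of 0.30, 0 passing and 2 at an unadjusted p under 0.05. These were Ppara, the fasting sensor of lipid oxidation, 8.84-fold apart between mouse 6 (344) and mouse 3 (3038), and Hnf4a. Nr1d1, the clock repressor REV-ERB alpha, read 510 in mouse 8 and 1212 in mouse 2, and Cebpa, the brightest, 7613 in mouse 8 and 13072 in mouse 5. Genes of insulin and fasting response (10 of 15 tested) had a median SD of 0.25, with 0 passing and 0 at an unadjusted p under 0.05. Gcgr, the glucagon receptor, was read at 3455 in mouse 5 and 1538 in mouse 6, Cdkn1a at 151 in mouse 4 and 544 in mouse 6, Per1 at 348 in mouse 5 and 685 in mouse 4, and Igfbp1 at 6816 in mouse 2 and 11754 in mouse 6. G6pc thus had 2 neighbours of like spread in these lists, Pkm and Ppara, and their order over the mice differed from its own.

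**Figure D5:**
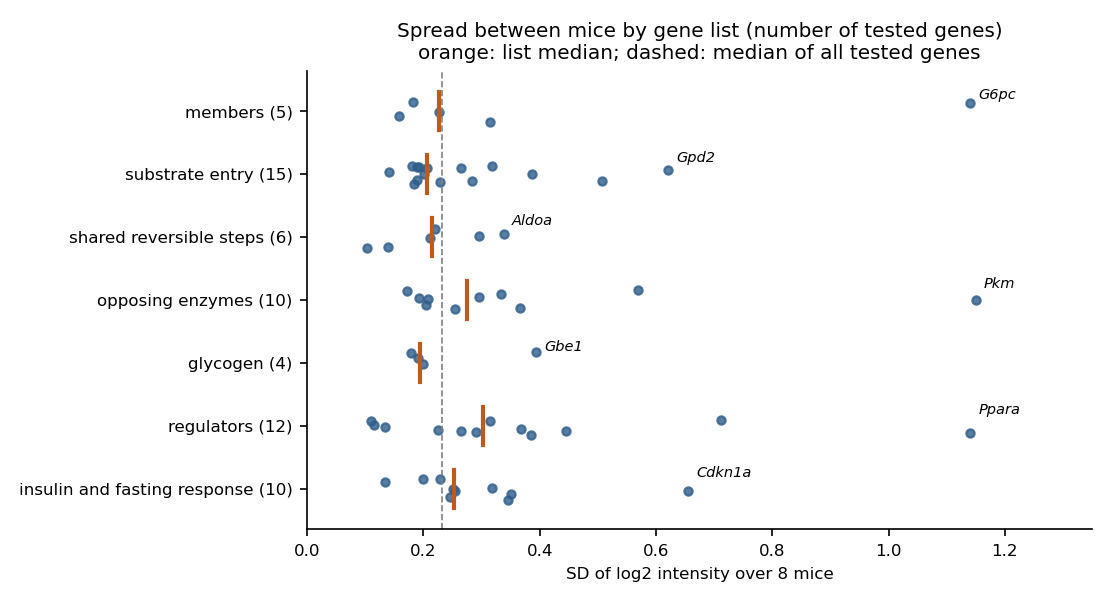
SD of log2 intensity over the 8 mice for each tested gene of the 5 members and of 6 pathway lists, with list medians in orange and the median of all tested genes (0.23) dashed. G6pc (1.14), Pkm (1.15) and Ppara (1.14) lie far to the right, while the other 4 members lie at 0.16 to 0.31.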

How the data were processed

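RNA from 8 livers was measured on Affymetrix U74Av2 arrays read with a Hewlett-Packard GeneArray scanner, per the labels. The deposited intensity of each probe set is linear and above 0, and a mean trimmed by 2% at each end was nearly equal on all arrays (a spread of 0.00455%), so the authors' values count as already scaled. No label names the software that summarized the probes. Each of the 8 columns bears the identifier of its sample.

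Intensities were raised to 37.2 (25th percentile), converted to log2 and tested where the mean was at least 165.2 (the median of all values). Of 66 control probe sets 50 were left out, and 16 sense sets of 1 mouse gene stayed. In the annotation 10855 probe sets had 1 symbol, 396 had several and 1237 had none. That left 6276 probe sets and 4871 genes. Spread was tested with limma 3.58.1 (squeezeVar with trend, robust, 3.77 prior degrees of freedom; R 4.3.3) by an F test (upper tail, adjusted after Benjamini and Hochberg). Correlations used all 40320 pairings of the mice, or 576 within the array sets. In simulated data with no spread of variances the F test recovered 39.0%, 99.0% and 99.0% of 200 planted probe sets among 6276, at 2, 4 and 8 times the expected SD.

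The members and lists were chosen with earlier results of these data known. Named genes are the members, their partners, the 3 most alike and the most opposed gene of each, and in each list the 3 with the largest SD and the brightest. Pairs were given singly where the unadjusted p of r or rho was under 0.05. Added after their values were seen were the other partner pairs, G6pc with Pck1 or Slc37a4, and Fbp1 with Pcx or Slc37a4. So were Pck1 and Slc37a4 against the macrophage and interferon scores, and Slc2a2, Slc25a10, Stat3, Gpd1, Pdhb, Pdk1 and single hepatocyte markers. The labels call the samples separate mice, and the number of arrays limits the precision. Alternatives covered the scaling, the floor, the filter, the choice of probe set, the array sets and each mouse left out.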

Additional observations from a re-analysis of the deposited data

Results flagged for a closer look

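Values over the 8 mice were checked for 1 mouse apart from the rest by Dixon's gap over range at the 95% level, so that about 1 in 20 is marked by chance. The check covered 42 sets of values, those of the members' probe sets, the 5′ to 3′ ratios, the partner genes and the pathway genes named by rule. Of these 8 were marked, each with mouse 5 apart. It was low in Pcx on the MB control set (451) and the MA control set (47.1), in the 5′ to 3′ ratio of Pcx (0.0246) and of Gapdh (0.375), and in Slc25a1 (1275), Hnf4a (266) and the nuclear receptor Esrra (586). It was high in Tdo2 (29425). Tested list genes outside the 42 also passed the limit. Mouse 5 was apart in Gpd1 (1436), Pdhb (4284) and Fgb (6095), and mouse 6 in Slc25a10 (1666) and Stat3 (1821).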

How the results depend on the processing

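The count of members passing the F test was 0 under every alternative run, with 1 member at an unadjusted p under 0.05 in most, 2 when a gene's probe sets were averaged and 0 without the filter on intensity. The count of member pairs past the threshold was 0 as reported, 3 with arrays scaled to a common median, which moves the array of mouse 5 by 0.20 and the others by less on the log2 scale, and 0 to 3 when 1 mouse was left out. Partner pairs past the threshold numbered 0 as reported, 1 with a common median, 1 with the array sets as a block (chosen after seeing the data) and 0 to 1 without 1 mouse. Marker list pairs numbered 0 as reported, 1 with quantile normalization and 0 to 1 without 1 mouse. Among the 9 pairs with an unadjusted p under 0.05, the sign turned in some with Pcx. With the mean of its 6 probe sets r was -0.481 with Pck1, -0.796 with Slc37a4, 0.242 with the macrophage score and 0.248 with the interferon response score, and with control probe sets left out (chosen after seeing the data) it was -0.285 with Slc37a4. The cause was not tested. Among the values of those 9 pairs and of the members' SD, 198 kept their sign and side of the threshold, 12 passed it and 5 turned. The other 23 pairs gave 328 values under the alternatives, 31 of opposite sign and 0 past the threshold. No paired analysis was possible because the series has 1 group. Signal over background limits Ppargc1a and the other dim genes.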
